A study of Mus musculus with 6 samples.

Results

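TMEFF2, its paralog TMEFF1 and the genes of the PDGF axis (the receptors PDGFRA and PDGFRB and the ligand chains PDGFA, PDGFB, PDGFC and PDGFD) were followed in 22Rv1 cells with acquired resistance to BL-B01D1. These 8 genes, taken by symbol, stand among 58735 genes in the count table. The set was chosen by the measured difference between the lines, since TMEFF2 was among the genes with the highest fold changes and PDGFRA among those with the lowest. Their differences are therefore given as a description, with no p-value, and the other 6 genes were taken along as relatives or binding partners. Of the 8 genes, 4 passed the filter on low counts (TMEFF2, PDGFRA, PDGFB and PDGFC) and 4 did not (TMEFF1, PDGFRB, PDGFA and PDGFD). PDGFRA passed through its parental libraries alone.

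The human prostate carcinoma line 22Rv1 grows without androgen. BL-B01D1 is a bispecific antibody-drug conjugate against EGFR and HER3 that carries a topoisomerase I inhibitor. RNA-Seq covered 3 libraries of parental 22Rv1 cells kept in vehicle and 3 libraries of the 22Rv1 BL-B01D1_R subline, which was obtained by raising the concentration of BL-B01D1 stepwise. The subline came from 1 selection, so a difference due to resistance and one due to drift between the lines cannot be told apart, and p-values measure only the spread between libraries. Whether BL-B01D1 was in the medium when RNA was taken is not given in the sources used here. Mouse is given as the organism in the labels, but the gene identifiers are human, and the counts were read as human. Counts on genes totaled 13821639 to 17251491 in parental libraries and 14820809 to 16725283 in resistant libraries. Of 9 markers of prostate epithelium, all 9 passed the filter on low counts, whereas all 3 endothelial and all 3 leucocyte markers had no more than 3 counts in any library. Of the epithelial markers, 5 were higher and 3 lower in resistant cells at an FDR below 0.05, none of them by a log2 fold change beyond 1. Of 3 neuroendocrine markers, CHGA fell by 2.26 on the log2 scale (edgeR FDR 2.49e-24), SYP (0.04) did not pass and INSM1 had no more than 3 counts in any library.

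TMEFF2 is a single-pass transmembrane protein of prostate and brain with follistatin-like domains and an EGF-like domain outside the cell. Its ectodomain can be shed by ADAM proteases and can bind PDGF-AA, and its cytoplasmic tail has been linked to sarcosine dehydrogenase (SARDH). PDGF chains form disulfide-linked dimers. The A, B and C chains bind PDGFRA, and the B and D chains bind PDGFRB, after which the receptor dimerizes, phosphorylates itself and recruits SH2-domain proteins such as SRC family kinases, PLCG1 and the PI3-kinase subunit PIK3R1. In tissues these receptors are best known from fibroblasts and mural cells, with the ligands often made by epithelium.

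TMEFF2 (ENSG00000144339) is protein-coding and spans 191949043 to 192195709 on chromosome 2 of hg38 (minus strand). It had 732, 636 and 505 counts in parental libraries 1, 2 and 3 and 6127, 5457 and 5728 counts in resistant libraries 1, 2 and 3. On the CPM scale (counts relative to a TMM-adjusted library size), these were 42.4, 37.8 and 36.3 in parental cells and 369, 370 and 352 in resistant cells. The 2 groups did not overlap, and the gap between them, 310 CPM, was far wider than the range within parental libraries (6.07 CPM) or within resistant libraries (18.0 CPM). The mean was 38.8 ± 3.16 CPM (SD, n = 3) and 364 ± 9.996 CPM (SD, n = 3), a log2 fold change of 3.22 (SE 0.042), or 9.34-fold. Among 19951 protein-coding genes ordered by FPKM (CPM per kilobase of the listed gene length), TMEFF2 moved from place 6877 in parental cells to place 687 in resistant cells.

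AC098617.1, annotated as a transcript antisense to TMEFF2, covers 95.5 kb, or 38.7%, of the TMEFF2 span. It had 1, 1 and 3 counts in parental libraries and 28, 26 and 35 in resistant libraries, a ratio of 17.9 (95% counting interval, 7.41 to 56.6). Whether reads were counted by strand is not given in the sources used here, so reads from TMEFF2 and from its antisense partner cannot be told apart. The 89 counts in resistant libraries were few beside the 17312 counts on TMEFF2 itself.

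TMEFF1 (ENSG00000241697; chromosome 9 of hg38, 100473113 to 100577636) encodes the paralog of TMEFF2, which restrains nodal signaling through its coreceptor Cripto. It had 8, 11 and 3 counts in parental libraries and 4, 6 and 7 in resistant libraries, so the groups overlapped. The resistant over parental ratio was 0.779, with a 95% counting interval of 0.388 to 1.54. By counting error alone, any ratio between these bounds is compatible with the summed counts, 22 and 17. All of its span lies inside MSANTD3-TMEFF1, a readthrough gene listed at 0 in all 6 libraries, and how reads on shared exons were assigned is not given in the sources used here.

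**Figure D1:**
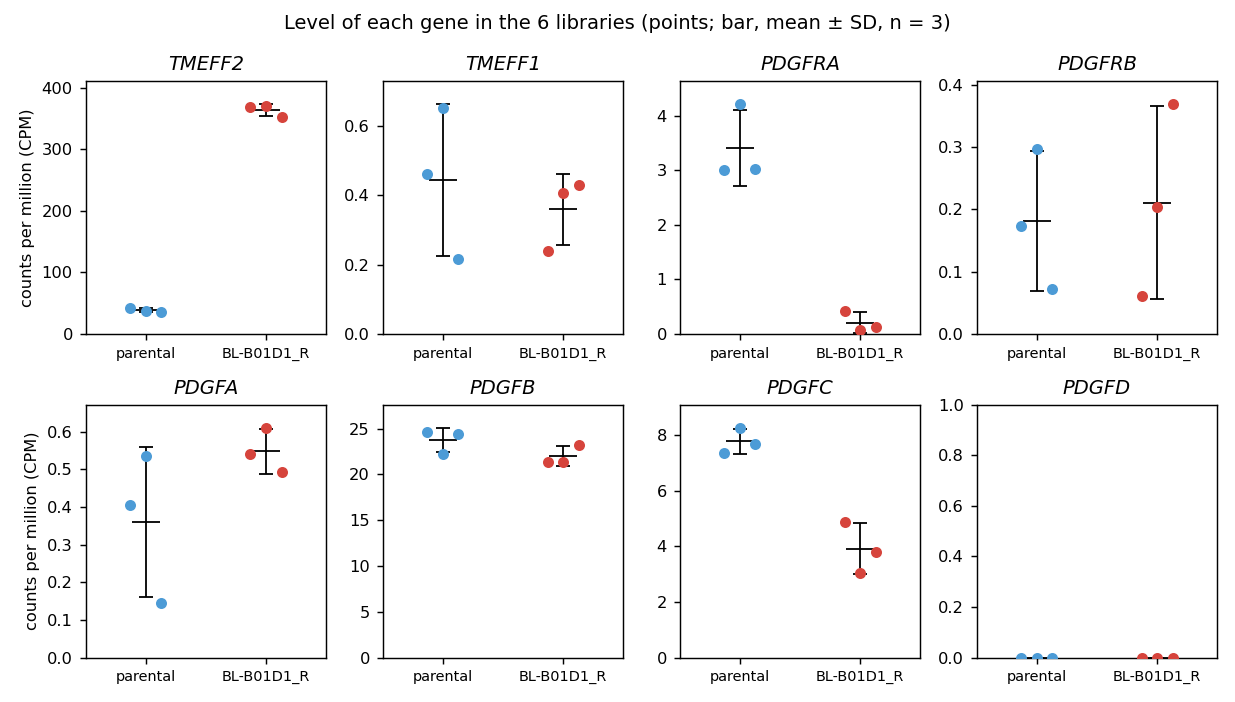
Level of each of the 8 genes in CPM, on an axis of its own that starts at 0, with each point a library and the bar the mean ± SD of 3 libraries. TMEFF2 sits between 36.3 and 42.4 CPM in parental and between 352 and 370 CPM in resistant libraries, PDGFRA and PDGFC are lower in all resistant libraries, and PDGFD is at 0.

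Of the receptors, PDGFRA (ENSG00000134853) is protein-coding and spans 54229097 to 54298247 on chromosome 4 of hg38 (plus strand). It had 52, 71 and 42 counts in parental libraries and 7, 1 and 2 in resistant libraries. On the CPM scale the level was 3.01, 4.22 and 3.02 in parental cells and 0.421, 0.0678 and 0.123 in resistant cells. All resistant libraries lay under all parental ones, and in 2 of them PDGFRA was under the level of 3 counts (between 0.174 and 0.216 CPM, depending on the library). The log2 fold change was −3.98 (SE 0.40). From the summed counts, 165 and 10, PDGFRA was 16.4-fold lower in resistant cells, with a 95% counting interval of 8.68 to 34.8. Resistant library 1 held 7 of the 10 counts, and without it the log2 fold change was −5.04 (32.8-fold). In bulk RNA, fewer cells that express PDGFRA and less RNA per cell cannot be told apart. AC058822.1, a gene model that runs through PDGFRA on the same strand, was listed at 0 in all 6 libraries, so reads on exons that both share may be missing from the PDGFRA counts.

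PDGFRB (ENSG00000113721; chromosome 5 of hg38, 150113837 to 150155872) was near the limit of detection, with 3, 5 and 1 counts in parental libraries and 1, 3 and 6 in resistant libraries. The groups overlapped, and the ratio of 1.12 had a 95% counting interval of 0.409 to 3.12. Since PDGFRA and PDGFRB mark fibroblasts and mural cells, a list of 9 markers of those cells was read beside them. COL1A2, FAP and THY1 had no more than 3 counts in any library, and of the 6 markers tested, 2 fell. LUM, which encodes the proteoglycan lumican, fell from 95.8 ± 2.96 to 28.7 ± 2.40 CPM (SD, n = 3; edgeR FDR 1.11e-26), and COL1A1, a collagen I chain, by 0.28 on the log2 scale (edgeR FDR 0.0348). The other 4 tested markers did not pass. The summed level of the list, most of which was LUM, was 117 to 121 CPM in parental and 45.6 to 50.8 CPM in resistant libraries. The part of these markers in the PDGFRA difference was not tested.

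Among the ligands, PDGFB (ENSG00000100311; chromosome 22 of hg38, 39223359 to 39244751), whose chain can bind both receptors, was the most abundant. Its level was 24.7, 22.2 and 24.4 CPM in parental libraries and 21.3, 21.4 and 23.2 CPM in resistant libraries. The groups overlapped, and the log2 fold change was −0.11 (SE 0.080), with a ratio of 0.927 (95% counting interval, 0.852 to 1.01). AL031590.1, annotated antisense to PDGFB, had 44 counts summed over parental and 39 over resistant libraries.

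PDGFC (ENSG00000145431; chromosome 4 of hg38, 156760454 to 156971394) encodes a chain that is secreted in latent form and binds PDGFRA after its CUB domain is cut off. It had 127, 139 and 107 counts in parental libraries and 81, 45 and 62 in resistant libraries. The level was 7.77 ± 0.46 CPM (SD, n = 3) in parental and 3.91 ± 0.92 CPM (SD, n = 3) in resistant cells, and all resistant libraries lay under all parental ones. Its log2 fold change, −0.98 (SE 0.17), was just inside the fold-change threshold of 1. It passed that threshold without parental library 1 (−1.02) and without resistant library 1 (−1.17).

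PDGFA (ENSG00000197461; chromosome 7 of hg38, 497258 to 520296), the chain bound by the TMEFF2 ectodomain, was scarce. It had 7, 9 and 2 counts in parental libraries and 9, 9 and 8 in resistant libraries. The groups overlapped, and the ratio was 1.46 with a 95% counting interval of 0.768 to 2.82. PDGFD (ENSG00000170962; chromosome 11 of hg38, 103907186 to 104164379), a chain that binds PDGFRB, had 0 counts in all 6 libraries. At these depths 0 counts allow up to 3 counts, which is at most 0.216 CPM in any library.

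A gene was called where the FDR was below 0.05 and the log2 fold change lay beyond 1 in either direction. Over all 17142 genes tested, 2.53% were called higher and 2.84% lower in resistant cells. By these thresholds TMEFF2 was higher and PDGFRA lower, while PDGFB and PDGFC were not called. TMEFF2 and PDGFRA were picked for this difference, so it is no independent evidence and nothing is read from their number. Resistant and parental libraries did not overlap for TMEFF2, PDGFRA and PDGFC, while all tested genes had such a gap upward in 22.1% and downward in 22.8% of cases.

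Per gene length, the order of the members differed between the lines. In parental cells it began with PDGFB at 6.32 ± 0.35 FPKM and TMEFF2 at 5.85 ± 0.48 FPKM (SD, n = 3), whose libraries overlapped. Next came PDGFC at 1.39 ± 0.082 FPKM and PDGFRA at 0.351 ± 0.071 FPKM, each separated from its neighbors in every library. TMEFF1 (0.170 ± 0.084 FPKM), PDGFA (0.0870 ± 0.048 FPKM) and PDGFRB (0.0253 ± 0.016 FPKM) followed, and each of these overlapped the next. In resistant cells TMEFF2 led with 54.9 ± 1.51 FPKM, above PDGFB at 5.84 ± 0.29 and PDGFC at 0.700 ± 0.16 FPKM (SD, n = 3). TMEFF1 (0.138 ± 0.040 FPKM) and PDGFA (0.132 ± 0.014 FPKM) overlapped, and PDGFRA at 0.0210 ± 0.020 FPKM was now at the bottom with PDGFRB at 0.0296 ± 0.022 FPKM, with which it overlapped.

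Summed over the chains, PDGF ligand mRNA amounted to 7.79 ± 0.24 FPKM in parental and 6.68 ± 0.30 FPKM in resistant cells (SD, n = 3). PDGFB made up 78.6% to 82.3% of that sum in parental and 85.0% to 89.1% in resistant libraries. PDGFC made up 16.5% to 19.7% and 8.56% to 13.1%, respectively. Ligand mRNA thus came mainly from PDGFB in both lines, with a smaller share of PDGFC in the resistant one.

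**Figure D2:**
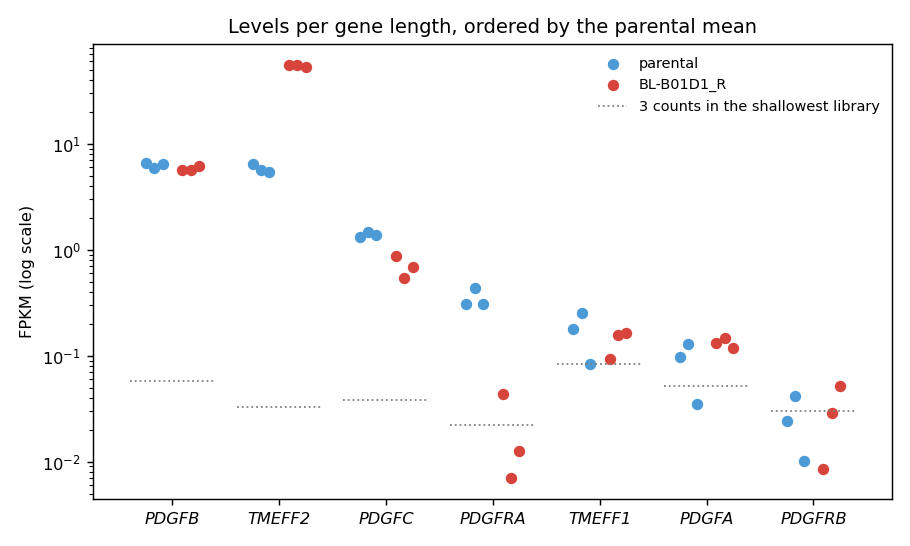
Level per gene length (FPKM, log axis) of the 7 members with any count, ordered by the parental mean; each point is a library and the dotted line is the level of 3 counts in the shallowest library. TMEFF2 stands alone at 53.1 to 55.8 FPKM in resistant libraries, and PDGFRA drops to the level of PDGFRB. PDGFD, at 0 in all libraries, cannot be drawn on this axis.

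The genes near the TMEFF2 and PDGFRA loci were then compared. Within 1 Mb of TMEFF2 the table lists 23 other genes, of which 6 were tested. Of these, 3 are described here. AC098617.1 overlaps TMEFF2 and was called higher, having passed the filter on low counts through its resistant libraries alone. NABP1, which encodes a single-stranded DNA binding protein, had a log2 fold change of 0.11, and STAT4, a cytokine-activated transcription factor, one of −0.37, and neither passed an FDR of 0.05. CAVIN2 had 0 counts in all libraries.

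Of 35 other genes within 1 Mb of PDGFRA, 4 were tested. SCFD2 had a log2 fold change of 0.21 (SE 0.075, edgeR FDR 0.0231), while FIP1L1 (−0.02), LNX1 (−0.14) and CHIC2 (0.22) did not pass. KIT, the stem cell factor receptor beside PDGFRA, had 3, 6 and 1 counts in parental libraries and 0 in all resistant libraries, and KDR and GSX2 had 0 counts throughout. The tested protein-coding neighbors named here had log2 fold changes far smaller than those of TMEFF2 and PDGFRA. KIT was too low to be tested, but its counts were lower in resistant cells, as those of PDGFRA were.

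**Figure D3:**
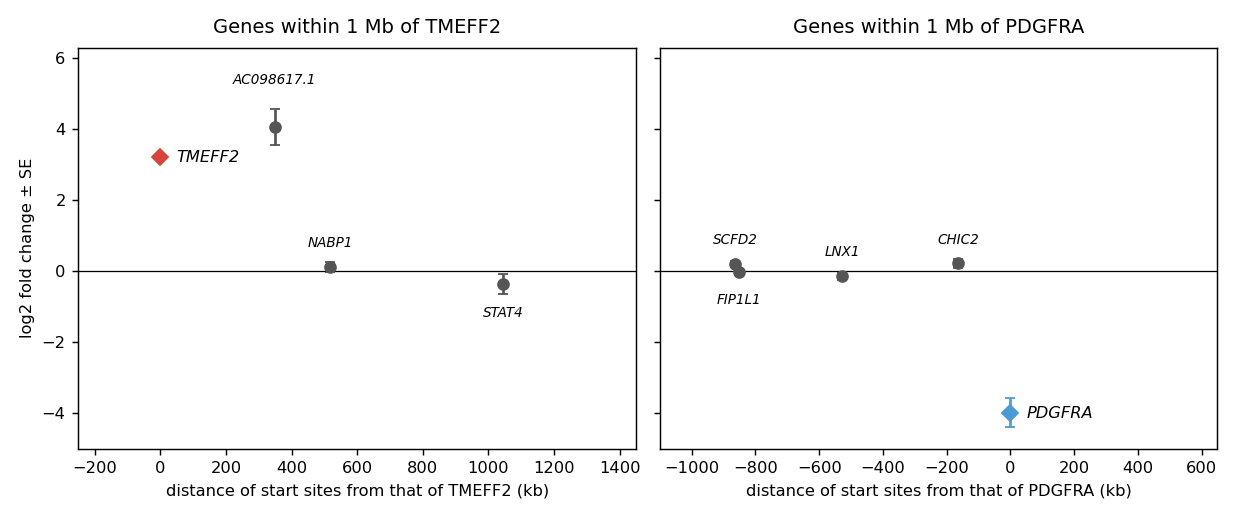
Log2 fold change ± SE (resistant over parental) of the tested genes described here within 1 Mb of TMEFF2 (left) and PDGFRA (right) against the distance of their start sites in kb, counted positive downstream. TMEFF2 at 3.22 and its antisense partner stand above NABP1 at 0.11 and STAT4 at −0.37, and PDGFRA at −3.98 lies below neighbors between −0.14 and 0.22.

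The genes whose levels over the 6 libraries were most like those of TMEFF2 were KRT19, CFAP69, GPM6A, LINC01146 and TENM2. Likeness was the root mean square difference of log2 CPM, each gene centered on its own mean, and ran from 0.0855 for KRT19, a keratin, to 0.123 for TENM2, a teneurin. KRT19 went from 9.01 to 80.0 CPM and the membrane glycoprotein gene GPM6A from 17.6 to 146 CPM. LINC01146 had only 4, 3 and 2 counts in parental libraries and passed the filter on low counts through its resistant libraries alone. Its fitted log2 fold change was 3.78 (SE 0.41), against 3.22 for TMEFF2. For PDGFRA the nearest were CYP4X1, A4GALT, SLC7A5, SUSD2 and COLCA1, at differences of 0.413 to 0.529. CYP4X1, a cytochrome P450 gene, went from 8.19 to 1.01 CPM and was highest among resistant libraries in library 1, as PDGFRA was. The gap between the lines dominates all of these profiles.

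**Figure D4:**
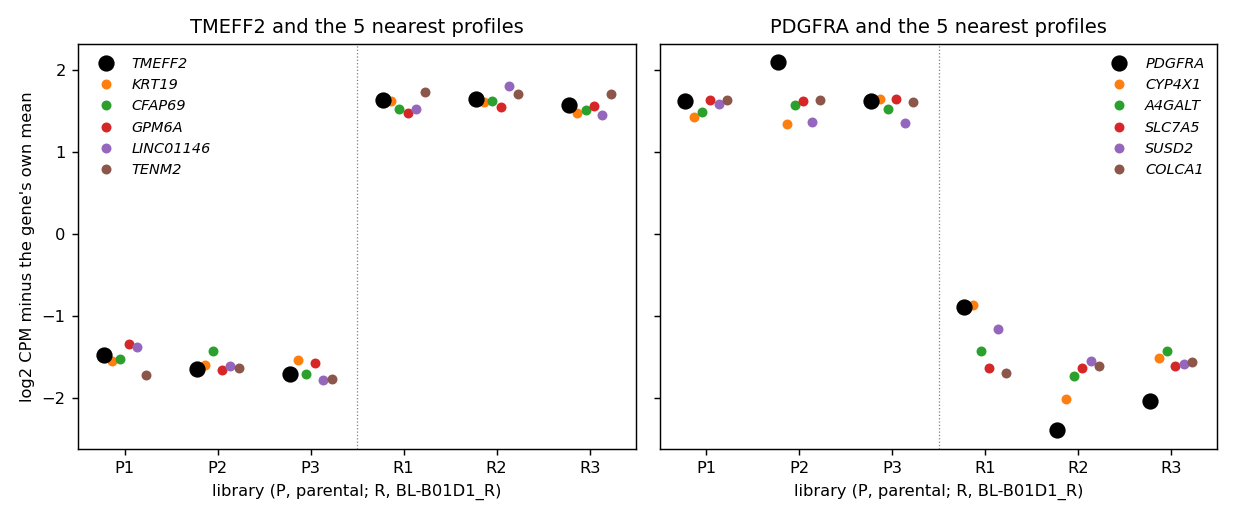
Log2 CPM minus the gene's own mean in each library for TMEFF2 (left) and PDGFRA (right) in black and the 5 genes with the nearest profiles in color. TMEFF2 and its nearest genes keep a narrow band in both lines, whereas PDGFRA spreads from −0.90 in resistant library 1 to −2.40 in resistant library 2, where it had 1 count.

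Other genes of the pathway came from 9 lists with 105 genes in all, none of them a member, of which 84 were tested. The FDR was below 0.05 for 11 with a higher level in resistant cells (13.1%, against 17.1% of all tested genes) and for 31 with a lower level (36.9%, against 18.4% of all). The median log2 fold change was −0.08 over the lists and 0.00379 over all tested genes. The lists were chosen with earlier results of these data known. They were not matched by level to all tested genes, so these shares are a description only. Most of these differences were small, and 2 genes were called higher and 7 lower.

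Of 8 proteases that can process PDGF chains, 5 were tested, 1 rose and 1 fell. FURIN, the proprotein convertase that cuts the A and B chains, rose from 56.0 ± 1.53 to 80.2 ± 3.10 CPM (SD, n = 3; log2 fold change 0.52, edgeR FDR 1.56e-11). ST14, or matriptase, which can cut the latent C and D chains, was lower by a small amount (log2 fold change −0.12, edgeR FDR 0.0251). ST14 missed the FDR threshold when parental library 1 or 3 or resistant library 1 or 2 was left out. With all libraries, it also missed it by DESeq2 (DESeq2 FDR 0.0706) and by limma on log2(FPKM + 1) (limma FDR 0.0555). The other 3 tested genes did not pass, and PLAU and PLG, which encode urokinase and plasminogen, had 0 counts.

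Of 7 proteins that bind the ligands or act as coreceptors, 5 were tested. THBS1, which encodes the matrix glycoprotein thrombospondin 1, had 246, 230 and 172 counts in parental libraries and 950, 860 and 975 in resistant libraries. This was the largest rise in the 9 lists (log2 fold change 2.12, SE 0.072, edgeR FDR 4.09e-26). NRP1 and LRP1, coreceptors for several growth factors, fell by 0.45 and 0.37 on the log2 scale (edgeR FDR 0.00573 and 0.00768), and the count of genes with a lower level in this list, 2, was 1 without parental library 1 or without parental library 3. PDGFRL (−0.33) and CSPG4 (−0.75) did not pass.

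Receptors related to the PDGF receptors were mostly too low to test in both lines. Of KIT, FLT3, CSF1R, KDR, FLT1 and FLT4, only FLT4, the VEGFC receptor, was tested. It fell from 7.16 ± 0.49 to 3.25 ± 0.60 CPM (SD, n = 3; log2 fold change −1.14, edgeR FDR 7.84e-07). Among their ligands, VEGFC rose (log2 fold change 0.94, edgeR FDR 0.00509) and VEGFA fell slightly (−0.15, edgeR FDR 0.0143), and the other 4 tested ligands did not pass. The count of genes with a lower level in this list, 2, was 1 without parental library 3, resistant library 2 or resistant library 3.

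Among 24 adaptors and effectors recruited by the receptors, 23 were tested, 4 rose and 10 fell. FYN, a SRC family kinase, was the only one called, at 9.49 ± 1.65 and 4.63 ± 0.64 CPM (SD, n = 3; log2 fold change −1.04, edgeR FDR 4.30e-07), and its log2 fold change was −0.89 without parental library 1 and −0.97 without resistant library 1. Those that rose were STAT5A (0.499), PIK3R1 (0.23), SRC (0.18) and STAT3 (0.16). The remaining 9 that fell, among them SHC1, CRKL, PTPN11 and NRAS, had log2 fold changes between −0.33 and −0.13. Without parental library 1, only 6 genes fell, and without resistant library 2, only 2 rose.

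Of 9 genes that restrain the receptors, 3 rose, 1 fell and 5 did not pass. PTPRJ, a receptor phosphatase that acts on PDGF receptors, had 483, 495 and 416 counts in parental libraries and 1066, 1082 and 1113 in resistant libraries, without overlap (log2 fold change 1.24, SE 0.061, edgeR FDR 2.20e-20). PTPN1 and RASA1 rose by small amounts (0.12 and 0.197 on the log2 scale). GRB10, an adaptor that dampens growth factor receptors, fell from 21.3 ± 2.65 to 10.7 ± 0.27 CPM (SD, n = 3; log2 fold change −0.99, edgeR FDR 9.04e-11). Without resistant library 1, 2 genes of the list fell.

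Among 12 immediate early genes that growth factors induce, 11 were tested, 0 rose and 3 fell. The 3 were FOSB (log2 fold change −1.09, edgeR FDR 1.27e-04), EGR1 (−0.54, edgeR FDR 2.99e-07) and EGR3 (−0.76, edgeR FDR 0.0271). FOSB stood at 4.16 ± 0.62 CPM in parental and 1.96 ± 0.35 CPM in resistant cells (SD, n = 3), and its log2 fold change was −0.95 without resistant library 1. Only 2 genes of the list fell when parental library 1 or 3 or resistant library 1 or 2 was left out. MYC (−0.05), JUN (0.03) and IER2 (0.02) did not pass.

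Of 10 proteases and partners tied to TMEFF2, all 10 were tested, 1 rose and 2 fell. SARDH, the mitochondrial enzyme that oxidizes sarcosine and binds TMEFF2, had 65, 42 and 46 counts in parental libraries and 18, 15 and 13 in resistant libraries. It fell by 1.71 on the log2 scale (SE 0.28, edgeR FDR 3.56e-06). ADAM17, the protease best known for shedding TMEFF2, had a log2 fold change of −0.08 and did not pass, and neither did its rhomboid cofactors RHBDF1 (0.15) and RHBDF2 (0.05). ADAM10 (−0.12, edgeR FDR 0.0160) and the gamma-secretase subunit APH1A (0.102, edgeR FDR 0.0199) passed with small differences, and the list had 0 to 2 genes higher and 1 or 2 lower when single libraries were left out.

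The other follistatin-domain genes listed and tested here went the opposite way to TMEFF2 or did not pass. Of 9 listed, 7 were tested, 0 rose and 5 fell. FST, which encodes the activin antagonist follistatin, had 54, 53 and 35 counts in parental libraries and 7, 6 and 12 in resistant libraries (log2 fold change −2.47, SE 0.33, edgeR FDR 5.55e-08). It passed the filter on low counts through its parental libraries alone. FSTL1, FSTL3, FSTL4 and FSTL5 had log2 fold changes between −0.61 and −0.47, whereas AGRN (−0.0033) and SMOC1 (0.19) did not pass. Without parental library 1, 3 genes of this list fell.

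In the nodal and activin pathway, which TMEFF1 touches, 7 of 11 genes were tested, 0 rose and 5 fell. INHBB, an activin chain, fell from 29.3 ± 2.44 to 12.2 ± 2.31 CPM (SD, n = 3; log2 fold change −1.26, edgeR FDR 3.66e-14). INHBA, the other activin chain, fell by 1.21 on the log2 scale (edgeR FDR 9.67e-06). The type II receptor ACVR2B and the signal transducers SMAD2 and SMAD3 fell by 0.22, 0.14 and 0.43. TDGF1, which encodes Cripto, had 0 counts in all libraries.

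**Figure D5:**
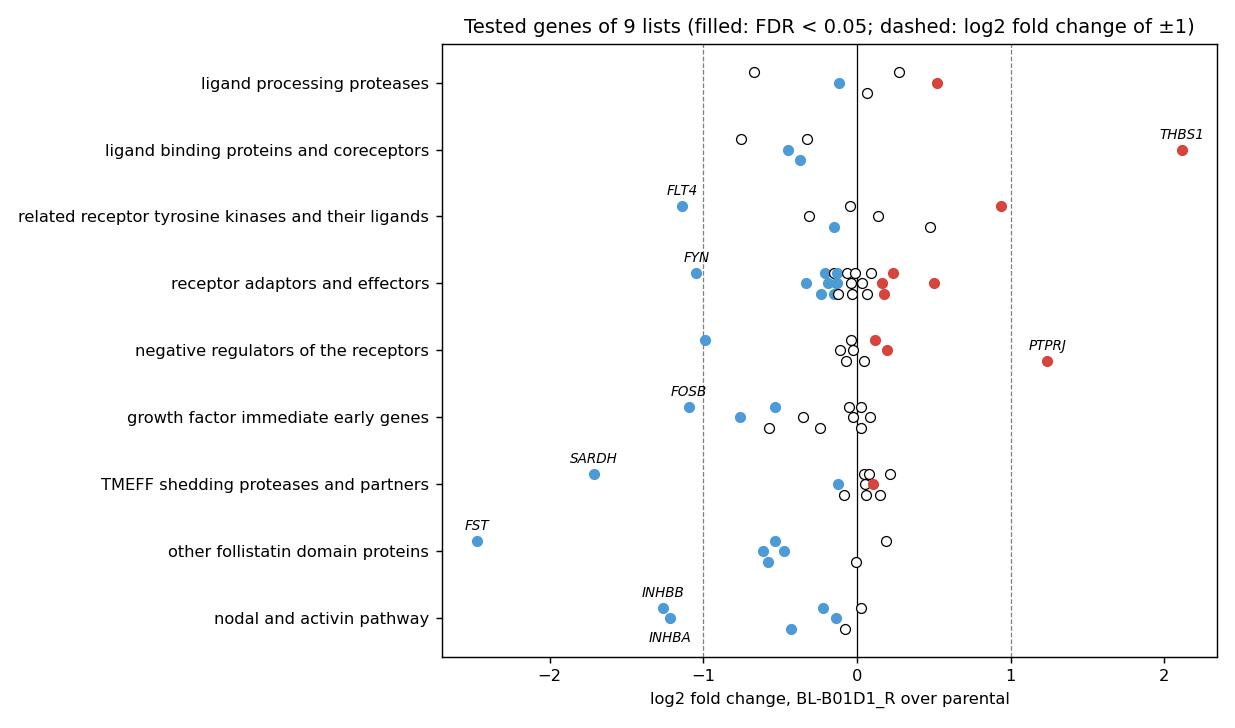
Log2 fold change (resistant over parental) of each of the 84 tested genes, 1 row of points per list; filled points had an FDR below 0.05 (red higher, blue lower), open points did not pass, and dashed lines mark ±1. THBS1 at 2.12 and PTPRJ at 1.24 lie beyond 1, and FST at −2.47, SARDH at −1.71 and 5 more genes lie beyond −1.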

How the data were processed

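RNA-Seq libraries of parental 22Rv1 cells and the BL-B01D1_R subline (3 each) were assigned by their titles. Per the labels and the methods, the authors trimmed reads with fastp, mapped them to hg38 with HISAT2 (2.0.5), counted them with featureCounts (1.5.0-p3) and deposited raw counts per gene with positions and gene lengths in bases. Annotation release, strand setting and treatment of reads on overlapping genes are not given in the sources used here. The number of per-sample columns not used was 0.

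From these counts, filterByExpr, TMM scaling and edgeR's quasi-likelihood test (edgeR 4.0.16, R 4.3.3) were run, with Benjamini-Hochberg adjustment over 17142 genes. Standard errors of log2 fold changes were derived from the F statistics. FPKM is TMM-scaled CPM per kilobase. Ratios of summed counts have exact conditional (Clopper-Pearson) 95% intervals. These and the floor of 3 counts cover counting error only. The common biological coefficient of variation was 3.51%.

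Members and lists were chosen with earlier results of these data known. Named are all members, list genes called (otherwise the 2 with the smallest FDR), protein-coding neighbors and the 5 genes of nearest profile (log2 CPM, prior count 2). Other genes were named after their values were seen, and some genes are not reported here. Scripts were tested on simulated counts. Alternatives, 8 in number, were library size alone, at least 10 counts in every library, no filter, limma-voom (limma 3.58.1; the methods name limma), DESeq2 (1.42.0), limma on log2(FPKM + 1), a replicate block and leaving out each library. No human sequence was used here.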

Additional observations from a re-analysis of the deposited data

How the results depend on the processing

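For the members and the main counts, the alternatives gave 116 values, of which 108 were alike, meaning the same sign and side of an FDR of 0.05 for a log2 fold change and within 1.5 times for a count. Genes called higher and lower, 434 and 487, were 248 and 287 with at least 10 counts in every library and 116 and 64 with limma on log2(FPKM + 1). In both settings 1 member was called in place of 2, since the first leaves PDGFRA untested and the second, whose added 1 shrinks differences of genes under 1 FPKM, put PDGFRA at a log2 fold change of −0.40. With limma on log2(FPKM + 1), 6 pathway genes were higher and 19 lower, against 11 and 31. With one library left out, these ranged from 9 to 11 and from 21 to 28. Over those fits TMEFF2 ranged from 3.18 to 3.29, PDGFRA from −5.04 to −3.61, PDGFC from −1.17 to −0.84 and PDGFB from −0.159 to −0.0805 in log2 fold change. For single lists and list genes, 36 of 376 values were not alike by the same rule and none reversed. That rule leaves out the fold-change threshold of 1. With limma on log2(FPKM + 1), the log2 fold changes of FLT4 (−0.40), FYN (−0.49), FOSB (−0.37), SARDH (−0.45), FST (−0.76) and INHBA (−0.34) lay inside it too. TMEFF1, PDGFRB, PDGFA and PDGFD were not tested in the main analysis and have no such values.

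Both groups carry replicate numbers 1 to 3. Libraries with the same number did not deviate together (correlations of −0.0196 to −0.00806), so the numbers were not taken as pairs. With the replicate block, TMEFF2 had a log2 fold change of 3.23 and PDGFRA one of −3.97.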
